A study of Mus musculus with 7 samples.

Results

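The genes described here are 6 members of the TMBIM family (transmembrane BAX inhibitor motif), Tmbim1, Tmbim4, Tmbim6, Grina, Ghitm and Faim2, and Irak3, whose gene model overlaps that of Tmbim4. They were chosen by name, 7 of the 48795 genes in the count table, and of these 6 had enough counts to be tested among 11618 genes. Bulk RNA was sequenced from germinal centre B cells of the light zone, sorted from the spleen of mice given sheep red blood cells by vein 10 days earlier, an antigen widely used to raise germinal centres. The 3 samples labelled MIZ1KO, titled MizFF, are by that label knockouts of MIZ1, the zinc finger transcription factor encoded by Zbtb17. The 4 labelled Control are titled eYFP. All were immunised alike, and the sources used here do not give strain, age, sex or the driver and cell type of the deletion. Whether each sample came from a separate mouse is not stated in the labels, so p-values measure only how these samples spread, and that spread may be technical.

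TMBIM proteins are small proteins that cross membranes several times and are known for restraining cell death and for setting how much calcium leaks from intracellular stores. Tmbim4 sits mainly in the Golgi, Tmbim6 (BAX inhibitor 1) in the endoplasmic reticulum, Tmbim1 in endosomes and lysosomes, Grina in Golgi and endoplasmic reticulum, and Ghitm in the inner mitochondrial membrane, while Faim2 is best known in neurons, where it inhibits Fas-induced death. Irak3, also called IRAK-M, encodes an inhibitor of signalling from Toll-like and interleukin-1 receptors and is best known in monocytes and macrophages. Light zone B cells test their antigen receptor, a strong source of calcium signals, and those that receive no help from T cells die.

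Tmbim4 (ENSMUSG00000020225) lies on the plus strand of chromosome 10 from 120201590 to 120224917 in GRCm38, and Irak3 (ENSMUSG00000020227) on the minus strand from 120141648 to 120202130. The pair is arranged head to head with 541 bases of overlap, of which 192 are exonic in both genes, 7.44% of the exonic bases of Tmbim4 and 5.22% of those of Irak3. Of the 10 Tmbim4 transcripts in GENCODE vM21, 3 share exonic bases with Irak3, and all 3, Tmbim4-207, Tmbim4-209 and Tmbim4-210, are of the class processed transcript, which has no coding sequence. The 2 protein-coding Tmbim4 transcripts share 0 bases with Irak3 and start 6620 bases beyond its model. Of the 5 Irak3 transcripts, 2 share exonic bases with Tmbim4, and these are its 2 protein-coding ones. The deposited counts of both genes were whole numbers in 7 of 7 libraries, so no fractional read was assigned to either gene.

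**Figure D1:**
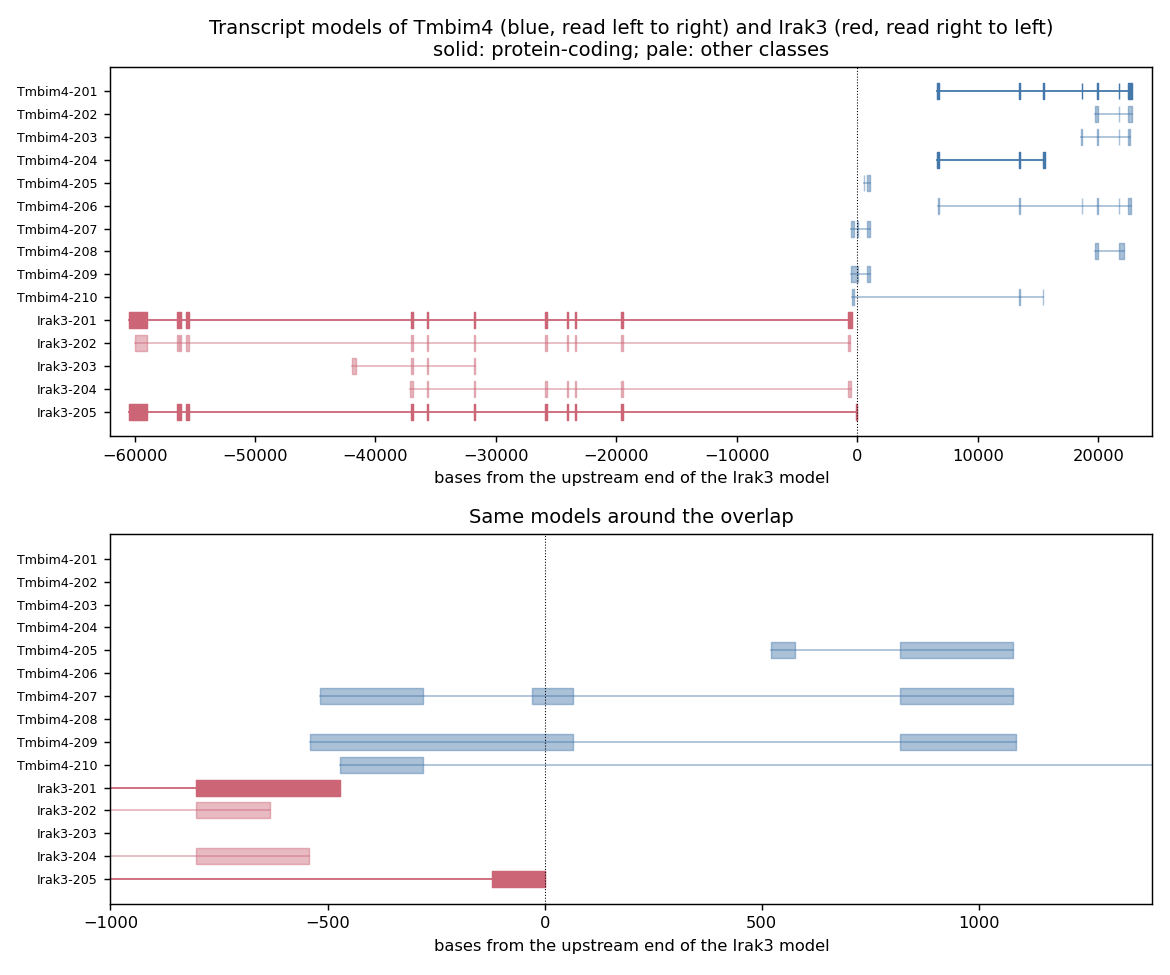
Transcript models of Tmbim4 (blue) and Irak3 (red) by GENCODE vM21, with distance in bases from the upstream end of the Irak3 model on the x axis, boxes for exons and solid colour for protein-coding transcripts. The lower panel enlarges the overlap, where the non-coding Tmbim4 transcripts meet the starts of the protein-coding Irak3 transcripts, while the protein-coding Tmbim4 transcripts begin 6620 bases to the right of 0.

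The bases upstream of both Irak3 starts are shown because there the start of each gene model runs into the other. RefSeq's table for GRCm38.p6 gave promoter windows for 3 of the 7 members, Tmbim1, Ghitm and Irak3. Both windows are on the minus strand of chromosome 10 and stop before the exons of Irak3, and capitals mark bases that are also exonic in non-coding Tmbim4 transcripts.
Irak3 downstream start, chr10:120201660-120201847: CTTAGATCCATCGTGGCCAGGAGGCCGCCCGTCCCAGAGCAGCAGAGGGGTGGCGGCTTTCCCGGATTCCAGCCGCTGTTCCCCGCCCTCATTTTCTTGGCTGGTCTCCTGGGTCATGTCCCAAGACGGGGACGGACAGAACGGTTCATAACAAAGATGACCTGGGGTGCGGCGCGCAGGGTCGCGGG
Irak3 upstream start, chr10:120202131-120202380: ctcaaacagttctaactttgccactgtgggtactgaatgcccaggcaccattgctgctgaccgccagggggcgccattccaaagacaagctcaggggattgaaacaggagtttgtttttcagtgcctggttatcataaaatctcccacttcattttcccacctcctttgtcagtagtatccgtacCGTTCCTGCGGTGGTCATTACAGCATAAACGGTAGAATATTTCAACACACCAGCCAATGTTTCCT
All 188 bases of the former and 65 of the 250 of the latter are Tmbim4 exon. The E-box CACGTG, the palindrome bound by MYC and its partner MAX, reads the same on both strands and was found in 1 of the 2 Irak3 windows, in 0 of 3 of Ghitm and in 0 of 1 of Tmbim1. It was found in 7.15% of the 32851 windows in the table, each from 250 bases before a start to 50 after it. The match in Irak3 starts at base 6 of the RefSeq transcript from the downstream start, and is shown in capitals with its flanks.
Irak3 E-box, chr10:120201577-120201602, minus strand: ctccctacgtCACGTGgggcccgccc

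Tmbim4 fell in MIZ1KO, Irak3 measured higher without passing the test, and the other 4 tested TMBIM genes did not pass. With edgeR's quasi-likelihood test and a threshold of 0.05 after adjustment, 1 of the 6 members tested was called, lower in MIZ1KO, where 5.96% of all genes tested were called, 4.05% lower and 1.9% higher. That split was not stable: among the 9812 protein-coding genes of the same fit 204 were higher and 202 lower, and without MIZ1KO replicate 2 all calls came to 299 higher and 196 lower. The libraries of the groups did not overlap for 2 of the 6, Tmbim4 and Irak3, in opposite directions, where 19.5% of all genes tested had no overlap, 10.8% lower and 8.74% higher in MIZ1KO. Levels are given in CPM, counts scaled to an equal library size (TMM, the trimmed mean of M-values), and log2 ratios (fold changes) of MIZ1KO over Control with the standard error of the fit.

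Tmbim4 was counted 12, 5 and 10 times in MIZ1KO replicates 1 to 3 and 133, 45, 41 and 33 times in Control replicates 1 to 4. These counts came to 1.29, 0.500 and 1.61 CPM in MIZ1KO and to 17.4, 7.0, 5.38 and 3.31 CPM in Control. The highest MIZ1KO library lay below the lowest Control library, and Control replicate 1 stood far above the rest. The means were 1.13 ± 0.571 CPM (SD, n = 3) and 8.28 ± 6.29 CPM (SD, n = 4), a log2 ratio of -2.92 ± 0.69 (0.0223 after adjustment in edgeR). On the deposited log2 scale Tmbim4 stood at 4.52, 4.33 and 4.60 in MIZ1KO and at 5.95, 5.28, 5.13 and 4.87 in Control, again without overlap, and its difference there was -0.82 (limma adjusted p = 0.0324). The call ended in limma-voom (adjusted p = 0.0863) and without MIZ1KO replicate 1 (edgeR adjusted p = 0.118) or 2 (edgeR adjusted p = 0.0782), and without Control replicate 1 the log2 ratio was -2.23 (edgeR adjusted p = 0.0275). Tmbim4 was chosen for description with its fall in these libraries already known.

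Genes of the annotation class TEC, putative models that await experimental proof, took 0.690% ± 0.204 (SD, n = 3 MIZ1KO) and 1.79% ± 0.653 (SD, n = 4 Control) of the counts not in ribosomal RNA genes, without overlap (exact permutation p = 0.0571, adjusted p = 0.114 over 2 quantities; smallest possible p = 0.0286). Because this share separated the libraries as genotype did, the parts of both in the members' changes cannot be told apart. In bulk RNA, fewer cells with a transcript and less transcript per cell also cannot be told apart.

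**Figure D2:**
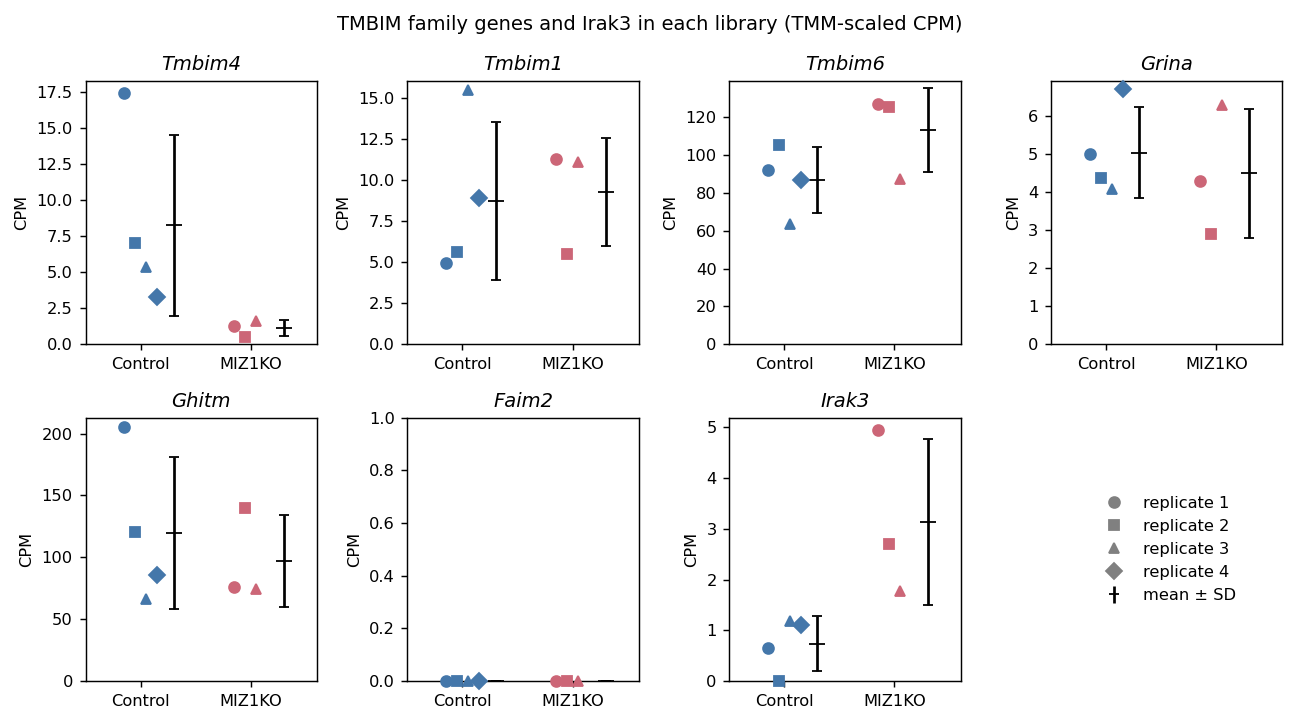
CPM of the 7 genes in each library, with 1 panel per gene, points for libraries, their shape for the replicate number, and black marks for the group mean ± SD (n = 4 Control, n = 3 MIZ1KO). Tmbim4 and Irak3 show no overlap between the groups, in opposite directions, while Faim2 lies at 0 throughout.

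Irak3 was counted 46, 27 and 11 times in MIZ1KO and 5, 0, 9 and 11 times in Control. Scaled, it stood at 4.94, 2.70 and 1.77 CPM in MIZ1KO and at 0.656, 0, 1.181 and 1.10 CPM in Control. MIZ1KO replicate 3 and Control replicate 4 had the same count, and only the scaling to library size set them apart. The group means were 3.14 ± 1.63 CPM (SD, n = 3) and 0.735 ± 0.542 CPM (SD, n = 4), a log2 ratio of 2.03 ± 0.68 (0.0778 after adjustment in edgeR), which did not pass. Irak3 reached 10 counts in 3 MIZ1KO libraries and in 1 Control library, so it entered the test mainly through the group where it was higher. The same holds for Tmbim4, which reached 10 counts in 4 Control libraries and in 2 MIZ1KO libraries.

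Per library, the sum of both genes held 58, 32 and 21 counts in MIZ1KO and 138, 45, 50 and 44 in Control, or 4.27 ± 1.70 CPM (SD, n = 3) against 9.02 ± 6.16 CPM (SD, n = 4). The groups overlapped in this sum, since MIZ1KO replicate 1 at 6.23 CPM lay above Control replicate 4 at 4.41 CPM. Tmbim4 made up 20.7% of the sum in MIZ1KO replicate 1 (exact 95% binomial interval 11.2% to 33.4%), 15.6% in replicate 2 (5.28% to 32.8%) and 47.6% in replicate 3 (25.7% to 70.2%). In Control it made up 96.4% in replicate 1 (91.7% to 98.8%), 100% in replicate 2 (92.1% to 100%), 82.0% in replicate 3 (68.6% to 91.4%) and 75.0% in replicate 4 (59.7% to 86.8%). Tmbim4 was thus the larger part of the pair in 4 of 4 Control libraries and the smaller part in 3 of 3 MIZ1KO libraries. The interval of MIZ1KO replicate 3 overlaps that of Control replicates 3 and 4. These intervals cover counting error only.

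**Figure D3:**
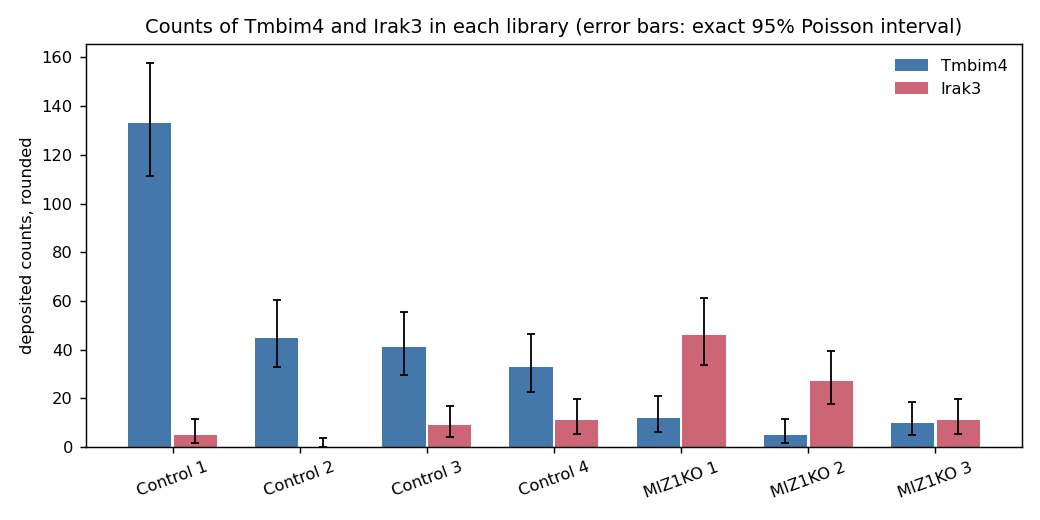
Counts of Tmbim4 (blue) and Irak3 (red) in each library, with the exact 95% Poisson interval as the error bar. Tmbim4 exceeds Irak3 in every Control library, and Irak3 exceeds Tmbim4 in every MIZ1KO library, by 1 count in MIZ1KO replicate 3 (11 against 10).

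Markers of myeloid cells, in which Irak3 is best known, were low. Of 20 markers 15 had any count, the macrophage and neutrophil markers Fcgr1, C1qa, Ctsg, Elane and Clec4d had none, and their summed level was 7.84 to 30.9 CPM in MIZ1KO and 11.7 to 14.7 CPM in Control. By library the sum was 7.84, 30.9 and 24.1 CPM in MIZ1KO replicates 1 to 3, the lowest and the 2 highest of all 7 libraries, where Irak3 stood at 4.94, 2.70 and 1.77 CPM. Of the 20 markers 4 reached the filter and 0 were called. Lyz2, the lysozyme of macrophages and granulocytes, had a log2 ratio of 1.68 (10.6 against 3.19 CPM, edgeR adjusted p = 0.0712), Csf1r 0.66 (edgeR adjusted p = 0.655) and Cd68 0.10 (edgeR adjusted p = 0.935). Ms4a7 lay the other way at -2.88 (0.250 against 1.56 CPM, edgeR adjusted p = 0.0942), and it was the one of the 4 whose groups did not overlap. Summed T cell markers, 10 of 10 detected, reached 2.47 to 22.8 CPM in MIZ1KO and 0.262 to 2.96 CPM in Control; the part of either cell type in the level of any member was not tested.

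Among the genes beside the pair on chromosome 10, none passed the test. Llph, which starts just beyond the end of Tmbim4 on the same strand, stood at 59.9, 42.8 and 47.0 CPM in MIZ1KO and at 56.3, 30.2, 33.1 and 33.9 CPM in Control, a log2 ratio of 0.38 ± 0.24 (edgeR adjusted p = 0.358). Its counts were not all whole, and copies of it were not sought. Helb, a DNA helicase on the far side of Irak3, ranged from 16.4 to 28.6 CPM in MIZ1KO and from 11.1 to 24.0 CPM in Control, with a log2 ratio of 0.22 ± 0.31 (edgeR adjusted p = 0.716). Grip1 and the chromatin protein gene Hmga2, the other protein-coding genes within 250 kb, did not reach the filter; Grip1 had counts in 1 library and Hmga2 in 5, with a maximum of 0.702 and 0.467 CPM.

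**Figure D4:**
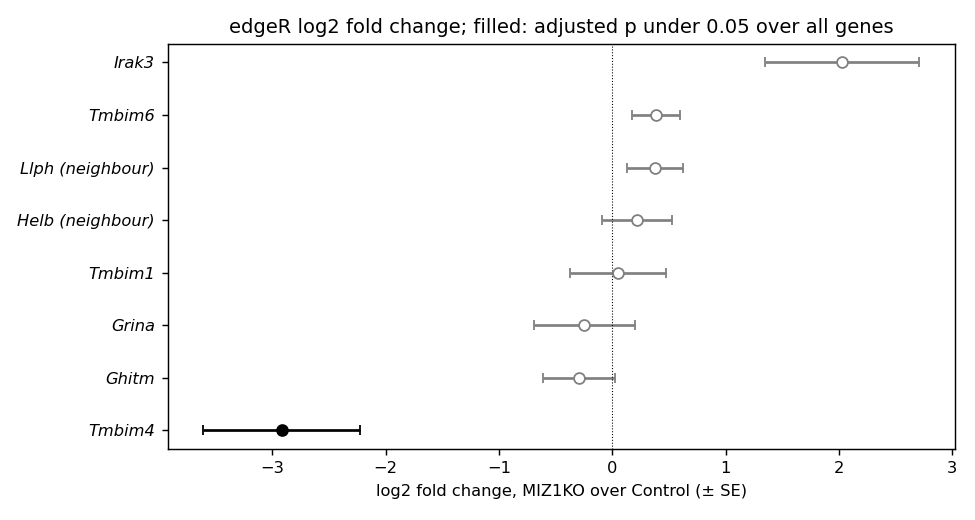
Log2 ratio of MIZ1KO over Control ± SE by edgeR for the 6 tested members and the 2 tested neighbours of Tmbim4, with filled points for an adjusted p under 0.05. Tmbim4 alone is filled, at -2.92, with Irak3 at the other end at 2.03 and the rest between -0.30 and 0.39.

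Of the other family genes of Golgi, endosomes and endoplasmic reticulum, none passed. Tmbim1 (ENSMUSG00000006301, chromosome 1, 74288247 to 74305622), a lysosomal and endosomal member, stood at 11.3, 5.50 and 11.1 CPM in MIZ1KO and at 4.98, 5.6, 15.5 and 8.92 CPM in Control. The groups overlapped throughout, and the log2 ratio was 0.05 ± 0.42 (edgeR adjusted p = 0.956). An opposite-strand model, Gm29358, shares 3265 exonic bases with Tmbim1. Deposited counts of Tmbim1 were not whole in Control replicates 1 and 3, at 38.26 and 117.94, where Gm29358 held 1.74 and 16.06, and the pair added up to whole numbers, 40 and 134. Reads there were thus divided between the models, and the level of Tmbim1 is uncertain by at least that much. In the other libraries Gm29358 held 0 counts, and reads of the shared bases may belong to either model there too.

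Grina (ENSMUSG00000022564, chromosome 15, 76246764 to 76249904) stood at 4.30, 2.90 and 6.27 CPM in MIZ1KO and at 4.98, 4.36, 4.07 and 6.72 CPM in Control. With 28 to 67 counts behind each library's value, its log2 ratio was -0.25 ± 0.45 (edgeR adjusted p = 0.784).

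Tmbim6 (ENSMUSG00000023010, chromosome 15, 99392882 to 99410049), which is known to dampen the stress sensor IRE1 as well as cell death, was one of the abundant members, at 127, 125 and 87.5 CPM in MIZ1KO and at 91.9, 105, 63.4 and 86.9 CPM in Control. MIZ1KO replicates 1 and 2 lay above all Control libraries and replicate 3 lay among them. Its log2 ratio was 0.39 ± 0.22 (edgeR adjusted p = 0.276).

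Ghitm (ENSMUSG00000041028, chromosome 14, 37120092 to 37135272), needed for the shape of mitochondrial cristae, stood at 76.3, 140 and 74.5 CPM in MIZ1KO and at 206, 121, 66.4 and 85.6 CPM in Control. Control replicate 1 was the highest library for Ghitm as it was for Tmbim4, and without it the log2 ratio of Ghitm turned from -0.30 ± 0.32 (edgeR adjusted p = 0.611) to 0.10 (edgeR adjusted p = 0.840). Faim2 (ENSMUSG00000023011, chromosome 15, 99497012 to 99528165) had 0 counts in 7 of 7 libraries, which allows up to 0.300 to 0.483 CPM per library at 3 counts. Of 8 neuronal genes 4 were detected, at a summed 0.537 to 5.31 CPM in MIZ1KO and 1.84 to 3.27 CPM in Control. Tmbim7, the family gene outside the members, had 3 counts in Control replicate 3 and none in the other libraries.

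Per kilobase of exon, the scale on which genes can be set side by side, Ghitm and Tmbim6 were the most abundant members. In Control, Ghitm reached 31.8 ± 16.4 CPM per kb and Tmbim6 19.0 ± 3.83 CPM per kb (SD, n = 4), with overlapping libraries. Next came Tmbim4 at 3.21 ± 2.44 and Grina at 2.43 ± 0.574 CPM per kb, again overlapping, then Tmbim1 at 0.691 ± 0.380, Irak3 at 0.20 ± 0.147 and Faim2 at 0. Tmbim6 and Tmbim4, Grina and Tmbim1, and Tmbim1 and Irak3 did not overlap in Control. In MIZ1KO the order ran from Ghitm at 25.8 ± 9.98 and Tmbim6 at 24.8 ± 4.88 CPM per kb to Grina at 2.17 ± 0.821. Then came Irak3 at 0.853 ± 0.444, Tmbim1 at 0.734 ± 0.260 and Tmbim4 at 0.439 ± 0.221 CPM per kb (SD, n = 3). Libraries of Ghitm and Tmbim6 overlapped, as did those of Irak3, Tmbim1 and Tmbim4 with each other. Tmbim4 thus held rank 3 of the 7 in Control and rank 6 in MIZ1KO. With the longest transcript as length it held ranks 3 and 4, and with the median transcript ranks 3 and 5. With the median transcript the order of Irak3 and Tmbim1 in MIZ1KO turned, to 6.11 CPM per kb for Tmbim1 (3.61 to 7.42) and 1.27 for Irak3 (0.716 to 1.999), without overlap.

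The genes whose log2 CPM ran most like that of Tmbim4 over the 7 libraries, among 6301 protein-coding genes with at least 10 CPM, were Pfas, an enzyme of purine synthesis (Pearson r = 0.97), Fbxo33 (0.97), the transcription factor gene Sox5 (0.96), Tmem68 (0.95) and the forkhead gene Foxj3 (0.94). Tmem68 fell in MIZ1KO, with a log2 ratio of -1.10 ± 0.27 (edgeR adjusted p = 0.0265), from 27.9 to 13.0 CPM, and the other 4 did not pass. Its call ended with any MIZ1KO library or Control replicate 2 or 4 left out (edgeR adjusted p from 0.0570 to 0.131). For Irak3 they were Dele1, which relays mitochondrial stress (0.97), the kinase gene Riok1 (0.96), the RNA polymerase III subunit gene Polr3f (0.96), Wdr3 of small ribosomal subunit assembly (0.96) and Fam160b2 (0.96), none of which passed. Between Tmbim4 and Irak3 r was -0.71, and between Tmbim4 and the other family members it ran from -0.51 for Tmbim6 to 0.38 for Ghitm. These are descriptions over 7 libraries that share the genotype split.

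In 5 lists of genes around the members' functions, 2 genes rose and none fell, and no list held more than 1 called gene. Counts in these lists stand beside 5.96% of all genes tested that were called, 1.9% higher. At 5.96% lists of this size hold about 1 call in either direction, and at 1.9% fewer than 1 higher. Neither 1 call nor 0 thus sets a list apart. Of 17 tested genes of inositol trisphosphate receptors and store calcium, 1 rose and 0 fell, and the median log2 ratio was 0.20, beside -0.03 over all genes tested. Calr, which encodes calreticulin, the calcium-binding chaperone of the endoplasmic reticulum, rose in MIZ1KO to 225 ± 40.4 CPM (SD, n = 3), against 129 ± 28.7 CPM (SD, n = 4). Its libraries ran from 106 to 170 CPM and from 192 to 270 CPM, without overlap, and its log2 ratio was 0.81 ± 0.22 (edgeR adjusted p = 0.0365). The call ended with any of 4 libraries left out, MIZ1KO replicates 1 (edgeR adjusted p = 0.125) and 3 (0.137) and Control replicates 2 (0.114) and 4 (0.0918), and with the replicate block (0.0642). Itpr2, a receptor through which stores release calcium, measured -0.60 ± 0.21 (edgeR adjusted p = 0.0882), and Itpr1 and Itpr3 measured -0.17 and 0.50 (edgeR adjusted p = 0.724 and 0.159). Of 17 tested genes of mitochondrial calcium and the inner membrane, where Ghitm acts, 0 were called, with a median of 0.10; the lowest adjusted p was that of Vdac1, the outer membrane channel, at 0.67 ± 0.23 (edgeR adjusted p = 0.0845).

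Of 20 tested genes of the BCL2 family and of death receptors, 0 were called, with a median log2 ratio of -0.10. Bcl2a1b, a survival gene, measured -0.79 ± 0.27 (edgeR adjusted p = 0.0821), and the death receptor gene Fas -0.57 ± 0.24 (edgeR adjusted p = 0.160). Of 16 tested genes of the unfolded protein response, which Tmbim6 is known to restrain, 0 were called, with a median of 0.03; Atf4 measured 0.66 ± 0.20 (edgeR adjusted p = 0.0628) and Hsp90b1 0.55 ± 0.20 (edgeR adjusted p = 0.103). Ern1, which encodes IRE1, and its substrate Xbp1 measured -0.68 and -0.11 (edgeR adjusted p = 0.614 and 0.825).

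Of 25 tested genes of IRAK and Toll-like receptor signalling, 1 rose and 0 fell, with a median log2 ratio of 0.08. Ube2v1, a partner of the enzyme that builds the ubiquitin chains of this pathway, rose in MIZ1KO to 127 ± 27.2 CPM (SD, n = 3), against 56.6 ± 8.22 CPM (SD, n = 4), a log2 ratio of 1.16 ± 0.21 (edgeR adjusted p = 0.00822). Its libraries ran from 48.6 to 67.9 CPM in Control and from 108 to 158 CPM in MIZ1KO. The readthrough model Gm20431 shares 1673 exonic bases with it and held 0, 4.36 and 97.26 counts in MIZ1KO and 23.85, 0, 0 and 0 in Control, and the pseudogene Gm8325 matches it at 99.5% over 424 bases, so the division of reads between them is uncertain. The adaptor gene Myd88 measured 0.91 ± 0.35 (edgeR adjusted p = 0.118), and the kinase genes Irak1, Irak2 and Irak4 measured 0.08, 0.51 and 0.49 (edgeR adjusted p from 0.333 to 0.877).

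**Figure D5:**
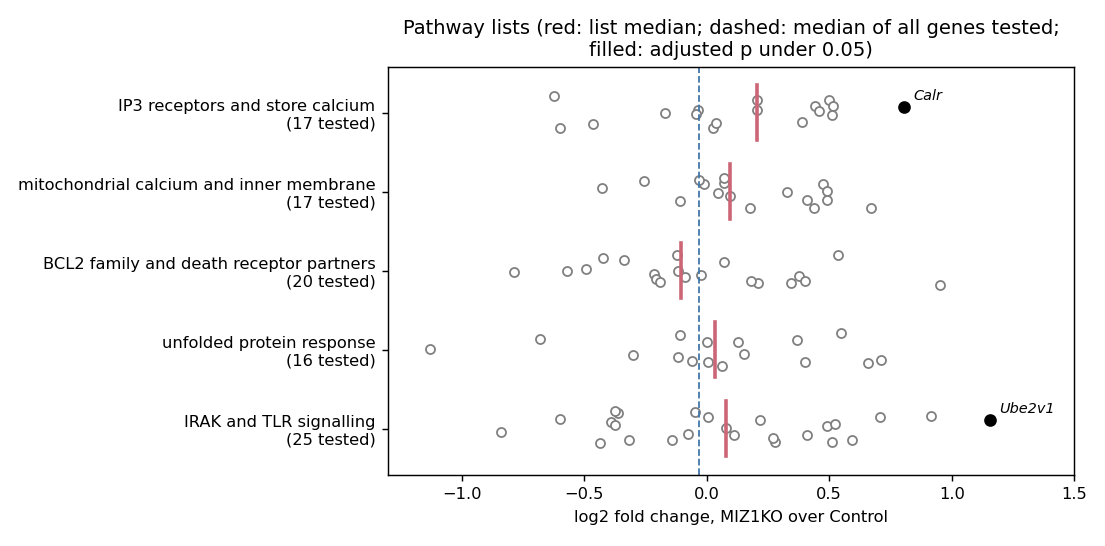
Log2 ratio of each tested gene in the 5 pathway lists, with a red line at the list median, a dashed line at the median of all genes tested (-0.03) and filled points for an adjusted p under 0.05 by edgeR. Calr and Ube2v1 are the 2 filled points, and the list medians lie between -0.10 and 0.20.

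Library totals ranged from 6896673 to 9482453 estimated counts, of which 3087992 to 5085019 lay outside ribosomal RNA, and 1 count was worth 0.0999 to 0.161 CPM. Markers of the labelled cell type were present in every library: germinal centre B cell genes, 14 of 14 detected, summed to 4875 to 5067 CPM in MIZ1KO and 4254 to 5185 CPM in Control, light zone genes to 847 to 960 and 785 to 1079 CPM, and dark zone genes to 535 to 571 and 429 to 539 CPM. Single markers did change between the groups by edgeR: Cd79a, a signalling chain of the B cell receptor, rose (log2 ratio 0.86, adjusted p = 0.0333) and Rgs13, a regulator of G protein signalling, fell (-1.32, adjusted p = 0.0230). Among dark zone genes, with a median of 0.32, the mitotic kinesin gene Kif20a (1.05, edgeR adjusted p = 0.0417) and Gadd45b (0.94, edgeR adjusted p = 0.0497) rose, and 0 of 12 light zone genes were called. Marker calls stand beside 5.96% of all genes tested that were called, 4.05% lower and 1.9% higher. Of the dark zone genes 8 of 10 lay above 0, and of the light zone genes 6 of 12. These lists are short, and whether the groups differ in their mix of zones was not tested. Summed plasma cell genes reached 365 to 533 CPM in MIZ1KO and 399 to 738 CPM in Control, and erythroid and platelet genes 61.4 to 493 and 117 to 427 CPM. Mean Zbtb17 was 4.45 ± 0.732 CPM (SD, n = 3) in MIZ1KO and 4.18 ± 1.89 CPM (SD, n = 4) in Control. Since whole-gene counts keep transcript outside a deleted part, this checks no label.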

How the data were processed

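RNA of the 7 samples was sequenced in bulk. The authors deposited expected counts, estimated reads per gene, without normalization, and log2 values labelled vsd, which usually stands for variance-stabilised data; the sources used here do not state their function. STAR 2.5.2, RSEM 1.3.0, DESeq2 1.18.1, R 3.4.3 and GRCm38 appear per the submitters' processing notes, with no role or order. The sources used here do not give the annotation release, the strand setting or the treatment of multiply mapped reads, so reads of overlapping genes cannot be assigned with certainty. Of the values, 6.61% were not whole, and counts were rounded. Symbols and coordinates came from GENCODE vM21, sequences from RefSeq (GRCm38.p6).

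Genes were filtered with filterByExpr, scaled by TMM, and compared with the robust quasi-likelihood F-test of edgeR 4.0.16 (R 4.3.3; two-sided, Benjamini-Hochberg over 11618 genes), tested on simulated data. Standard errors came from the fold change and F statistic. A prior count of 2 was used for log2 CPM. Alternatives used DESeq2 1.42.0, limma 3.58.1, other filters and scalings, a replicate block, and each library left out. Copies were sought by alignment at 90% identity over 200 bases. Any 2 libraries of a group differed by a chi-square of at least 15.8 per degree of freedom, so each was counted once. This cannot show that the libraries came from separate mice.

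Members and lists were chosen with earlier results of these data known. Named genes were the members, Tmbim7, protein-coding genes within 250 kb of Tmbim4, called list members or else the 2 with the smallest p, and the 5 genes most like Tmbim4 and Irak3. Zbtb17, Lyz2, Csf1r, Cd68, Ms4a7, Cd79a, Rgs13, Kif20a, Gadd45b, Itpr1, Itpr3, Ern1, Xbp1, Irak1, Irak2 and Irak4 were added after their values were seen. Lists covered store calcium, mitochondrial calcium, BCL2 and death receptor genes, unfolded protein response, IRAK signalling and cell markers.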

Additional observations from a re-analysis of the deposited data

Results flagged for a closer look

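In 4 of 33 named genes, 1 Control library stood far from the other 3. For normally spread values chance gives such a distance in about 1 in 20 groups; that share does not hold for Tmbim7 and Grip1, where any single library with counts is far from 3 libraries at 0. Llph, the gene next to Tmbim4, reached 56.3 CPM in Control replicate 1, where the lowest Control library had 30.2 CPM. Tmbim7 reached 0.394 CPM in Control replicate 3 on 3 counts, and Grip1 0.702 CPM in Control replicate 4, with 0 in the other Control libraries for both. Zbtb17 reached 7.02 CPM in Control replicate 4, where the lowest Control library had 3.15 CPM.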

How the results depend on the processing

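Irak3 and Tmbim6 kept their direction and stayed short of the threshold in 18 of 18 alternatives. Tmbim4 kept its direction in 18 of 18 and its call in 15; the call ended in limma-voom (log2 fold change -2.71), and with single libraries left out the value ran from -3.18 to -2.23. Without single libraries, values that reached past 0 ran from -0.15 to 0.49 for Tmbim1, -0.51 to 0.0741 for Grina, -0.60 to 0.10 for Ghitm, -0.0633 to 0.46 for Helb and -0.0934 to 0.51 for Zbtb17, the last also -0.000826 among protein-coding genes only. Against 692 genes called in all, DESeq2 called 1120, limma-voom 342 and the fit to protein-coding genes 315, and leaving out single libraries 39 to 1350, of which 22 to 523 were higher and 17 to 827 lower. Against 2 list members called, DESeq2 called 6, the replicate block 1, and leaving out single libraries 1 to 7. Median transcript length moved 2 members in the Control order per kilobase, Ghitm and Tmbim6, and longest transcript length left that order unchanged. In MIZ1KO either length changed every rank but those of Grina and Faim2. Deviations of same-numbered samples correlated at 0.02, 0.07 and 0.16. MIZ1KO replicates 1 and 3 correlated best with the Control of the same number, and MIZ1KO replicate 2 with Control replicate 1 (0.13). So few libraries cannot settle whether the numbers pair the samples. With the replicate block 476 genes were called and Tmbim4 measured -3.19 (edgeR adjusted p = 0.00924). Without a filter the median of all genes shifted to -0.14. Tmbim4 rested on 5 to 133 counts and Irak3 on 0 to 46 per library, which limits both. The causes of these changes were not tested.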
